A study of Homo sapiens with 54 samples.

Results

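Mitotic kinesins are the motor proteins that build the spindle, move chromosomes along it and separate daughter cells. The 10 genes described here are KIF20A, KIF11, KIF23, KIF4A, KIF14, KIF15, KIF18A, KIF2C, KIFC1 and CENPE, out of 18417 genes that the array names with 1 symbol. Each was read from the array feature whose annotation gave that symbol alone, and where a gene had more than 1 such feature the one with the highest mean over the 54 arrays was used. The features were thus chosen by a measured value, their mean level, which is not used as a result. All 10 genes were measured, and no filter on low values was applied.

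RNA came from NCI-H460, 1 human lung large cell carcinoma line, kept in medium without serum, so every group shares serum withdrawal. Cells received cigarette smoke extract at 5 uM nicotine equivalent, nicotine at 5 uM, or neither. At 2 h after that they received 6 Gy of cesium-137 radiation, 1 uM cisplatin, or neither, and were collected 2 h or 24 h later. The 9 groups at each time, 18 in all, are therefore radiation with smoke extract, cisplatin with smoke extract, radiation with nicotine, cisplatin with nicotine, radiation, cisplatin, smoke extract, nicotine and untreated cells, with 3 arrays in each. Untreated means neither pretreatment nor therapy, still without serum. The labels call the 3 samples of a group biological replicates of the one line. The p-values therefore rest on the spread between replicate samples of that line, pooled over the 18 groups. Whether the cultures were treated side by side is not given in the labels.

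Kinesins walk along microtubules, or take them apart from their ends, by hydrolysing ATP. In dividing cells some push or pull the spindle poles, some carry and align chromosomes, and some bundle the midzone where the cell will be cut. Transcripts of most of them are made late in the cell cycle: the DREAM complex represses their promoters early in the cycle and the MMB-FOXM1 complex activates them later, through an element called the cell cycle homology region and through CCAAT boxes.

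Because of that known promoter layout, the 100 bases before the annotated start were read for the genes that the results below turn on (RefSeq, GRCh38.p14). Capitals mark CCAAT, the NF-Y box, or its reverse complement ATTGG, and TTTGAA or TTCGAA, forms of the cell cycle homology region, or TTCAAA, the reverse complement of TTTGAA.
KIF20A: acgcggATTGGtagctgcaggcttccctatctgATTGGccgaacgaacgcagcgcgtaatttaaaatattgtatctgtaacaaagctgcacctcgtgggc
KIF11: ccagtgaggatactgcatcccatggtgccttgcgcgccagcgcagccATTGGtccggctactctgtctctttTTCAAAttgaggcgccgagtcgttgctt
KIF4A: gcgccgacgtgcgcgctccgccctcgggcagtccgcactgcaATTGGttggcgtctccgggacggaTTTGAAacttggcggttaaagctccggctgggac
KIF23: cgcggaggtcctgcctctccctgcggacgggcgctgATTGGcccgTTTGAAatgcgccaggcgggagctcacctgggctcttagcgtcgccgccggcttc
KIF18A: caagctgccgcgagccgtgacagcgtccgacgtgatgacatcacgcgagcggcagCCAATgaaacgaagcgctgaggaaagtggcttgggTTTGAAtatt
CENPE: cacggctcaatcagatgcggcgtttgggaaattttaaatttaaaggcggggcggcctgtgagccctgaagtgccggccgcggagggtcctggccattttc
These windows lie at chr5:138179012-138179111 (KIF20A, plus strand), chr10:92593030-92593129 (KIF11, plus), chrX:70290004-70290103 (KIF4A, plus), chr15:69414249-69414348 (KIF23, plus), chr11:28108157-28108256 (KIF18A, minus) and chr4:103198344-103198443 (CENPE, minus).

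In KIF11, KIF4A, KIF23 and KIF18A a CCAAT box lay upstream of a TTTGAA, either on the same or on the opposite strand, whereas KIF20A held a pair of CCAAT boxes without the other motif and CENPE held neither. Over the longer window of 250 bases before to 50 after the start, a CCAAT on either strand was found in 7 of the 10 promoters, against 35.7% of 27305 promoters. TTTGAA or TTCGAA was likewise found in 7 of the 10, against 16.6%, and both motifs in 6 of the 10, against 6.6%. KIF23 and KIF18A, whose values depart most from the others below, held both motifs, and CENPE, whose values follow the others, held neither. These matches describe letters and not bound sites, and no match says only that the letters are absent from the window.

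Values are on a log2 scale, so a difference of 1 is a 2-fold difference, and they were compared within a gene and never between genes. Over the 54 arrays, medians lay between 6.43 and 6.63 and replicates correlated at 0.979 to 0.996. The mean of 460 genes of families that are silent outside sense organs and hair (olfactory, taste and trace amine receptors, keratin-associated proteins) ran from 4.65 to 5.14 per array and served as a measure of background. On that measure 13 arrays stood apart from their groups, and leaving them out left 1 array in 3 groups (radiation with smoke extract at 24 h, cisplatin at 24 h and cisplatin at 2 h). Of the epithelial markers KRT8, KRT18 and KRT19 averaged 11.96, 11.26 and 11.54, while EPCAM averaged 5.28. The 4 measured leukocyte markers averaged 3.40 (PTPRC) to 9.41 (CD68), the 5 fibroblast markers 3.12 (DCN) to 7.56 (COL1A1), and the 4 endothelial markers 4.88 to 5.81, and the part of other cell types in the results was not tested. The kinesin features used had means at the 61.2nd (KIF15) to 92.7th (KIF20A) percentile of all genes. That is a description only, since features were chosen by their mean.

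At 24 h, radiation alone was accompanied by lower transcripts of 9 of the 10 kinesins, with 21% of all genes called in either direction. Smoke extract given before radiation was accompanied by a further drop in 9 of the 10, with 8.23% of all genes called. Cells given both had 5.42-fold less KIF20A, 4.62-fold less CENPE and 4.00-fold less KIF15 than untreated cells. The exceptions differed between the steps: KIF18A was not lower after radiation alone, and KIF23 was not lowered further by smoke extract. A gene is called here when limma's test gave a p under 0.05 after Benjamini-Hochberg adjustment across the 18417 genes. Each count is set beside the share of all genes called, except counts from other settings, such as a covariate or arrays left out. In whole-culture RNA, fewer cells in late cell cycle stages and less RNA per cell cannot be told apart.

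**Figure D1:**
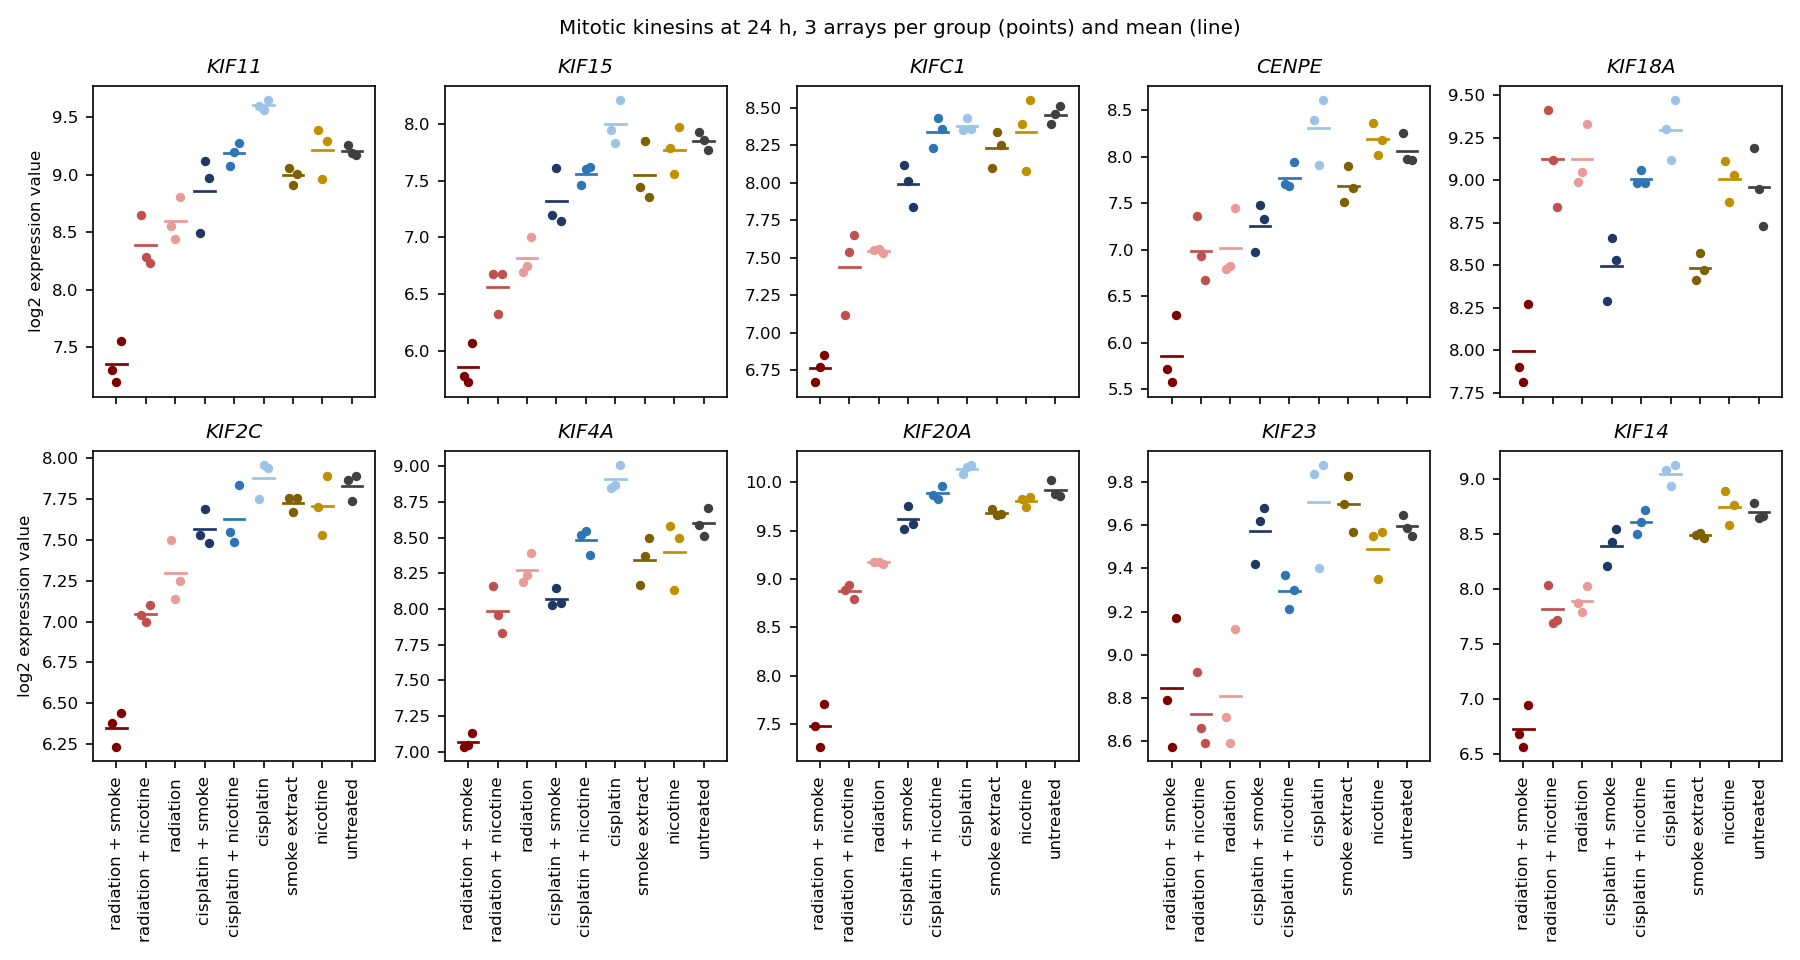
Log2 value of each of the 10 kinesins in the 9 groups at 24 h, 1 panel per gene. Points are single arrays (3 per group) and the line is their mean. Cells given radiation and smoke extract had the lowest values, clear of every other group, in 9 panels, and the exception is KIF23.

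KIF11, KIF15 and KIFC1 set the length and polarity of the bipolar spindle. KIF11 (also called Eg5) slides antiparallel microtubules apart and drives the centrosomes away from each other. Its values at 24 h were 7.30, 7.19 and 7.55 in cells given radiation and smoke extract, 8.55, 8.44 and 8.81 after radiation alone and 9.06, 8.91 and 9.01 after smoke extract alone, against 9.26, 9.19 and 9.17 in untreated cells. These 4 groups did not overlap. KIF11 fell by 0.61 ± 0.12 (log2, SE) with radiation (limma adjusted p = 0.000174) and by a further 1.25 ± 0.12 when smoke extract preceded radiation (limma adjusted p = 4.36e-11). KIF15, which can keep the spindle bipolar when KIF11 is inhibited, had 5.78, 5.72 and 6.07 with both agents and 6.69, 6.75 and 7.00 with radiation alone, against 7.93, 7.86 and 7.77 in untreated cells. All irradiated arrays lay below all untreated ones, by 1.04 ± 0.14 with radiation alone (limma adjusted p = 1.03e-07). KIFC1, a minus-end motor that opposes KIF11 and gathers extra centrosomes, had 6.67, 6.77 and 6.85 with both agents and 7.55, 7.56 and 7.53 with radiation, against 8.39, 8.46 and 8.51 in untreated cells. Its replicates sat within narrow bands, and it fell by 0.91 ± 0.11 with radiation (limma adjusted p = 1.96e-08). The second KIFC1 feature, not used here, fell by 0.83 in the same comparison.

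CENPE, KIF18A, KIF2C and KIF4A act on chromosomes and on the microtubules that hold them. CENPE carries chromosomes from the poles to the middle of the spindle. It had 5.71, 5.57 and 6.30 at 24 h with both agents and 6.79, 6.82 and 7.45 with radiation, against 8.26, 7.98 and 7.96 in untreated cells. These 3 groups did not overlap, although replicates spread more than for other members (residual SD 0.229), and the drop with radiation was 1.04 ± 0.17 (limma adjusted p = 8.53e-06). KIF2C (MCAK) has no walking motion and takes tubulin off microtubule ends at the kinetochore. It had 6.38, 6.23 and 6.44 with both agents and 7.50, 7.14 and 7.25 with radiation, against 7.87, 7.74 and 7.89 in untreated cells. The groups did not overlap, and the change with radiation was -0.54 ± 0.11 (limma adjusted p = 0.000335).

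KIF4A, which binds chromosome arms and works with PRC1 to set midzone length, had the smallest drop among the 9 members called in irradiated cells. It had 7.03, 7.05 and 7.13 with both agents and 8.19, 8.24 and 8.39 with radiation, against 8.59, 8.51 and 8.71 in untreated cells. The groups did not overlap, and the change with radiation was -0.33 ± 0.09 (limma adjusted p = 0.00709). That call was lost without untreated replicate 3 (limma adjusted p = 0.0593) or without radiation replicate 1 (adjusted p = 0.05 after rounding). A feature that the annotation assigns to both KIF4A and KIF4B changed by -0.04 and was not used.

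KIF18A, which dampens chromosome oscillation by slowing the plus ends of kinetochore microtubules, stood apart from the rest. It had 8.99, 9.05 and 9.33 after radiation, against 9.19, 8.95 and 8.73 in untreated cells. The 2 groups overlapped, with a change of 0.17 ± 0.14 and a 95% interval of -0.11 to 0.45, and the smallest drop called in another member, -0.33 in KIF4A, lay outside it (limma adjusted p = 0.459). With both agents, KIF18A had 7.90, 7.81 and 8.27, below every array of the other groups, 1.13 ± 0.14 lower than with radiation alone (limma adjusted p = 1.46e-08).

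KIF23, KIF20A and KIF14 work at the midzone and in cytokinesis. KIF20A (MKLP2) brings the chromosomal passenger complex to the midzone, and its transcript had the largest drop of the 10 with both agents. It had 7.48, 7.26 and 7.71 with both agents, 9.18, 9.18 and 9.16 with radiation and 9.72, 9.66 and 9.67 with smoke extract, against 10.03, 9.88 and 9.86 in untreated cells. No array of one of these groups overlapped another group. Radiation came with a change of -0.75 ± 0.08 (limma adjusted p = 3.02e-09), and smoke extract added to radiation with one of -1.69 ± 0.08 (limma adjusted p = 1.37e-20), the 14th largest of all 18417 genes in size. KIF14, which recruits citron kinase to the midbody, had 6.68, 6.56 and 6.95 with both agents and 7.87, 7.79 and 8.03 with radiation, against 8.78, 8.65 and 8.67 in untreated cells. It too was lower at each step without overlap, with a change of -0.80 ± 0.10 in irradiated cells (limma adjusted p = 3.02e-08).

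KIF23 (MKLP1), the motor of the centralspindlin complex, had 8.71, 8.59 and 9.12 after radiation, against 9.65, 9.59 and 9.55 in untreated cells, a change of -0.79 ± 0.11 (limma adjusted p = 6.92e-07). With both agents it had 8.79, 8.57 and 9.17, which overlapped radiation alone, and the difference of 0.03 ± 0.11 had a 95% interval of -0.19 to 0.26 (limma adjusted p = 0.955). Its drop with radiation was thus of the same order as that of KIF20A, whereas the added step seen in the other 9 was outside its interval.

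In radiation alone at 24 h, 9 of the 10 kinesins were lower and 0 higher, while 21% of all genes were called in either direction. The median change over the 10 was -0.77, against 0.03 over all genes. With smoke extract added to radiation, 9 were lower and 0 higher, against 8.23% of all genes, with a median of -1.15 over the 10 and -0.01 over all genes. Inside smoke extract pretreated cells, radiation gave 10 of 10 lower, with 14.2% of all genes called. Inside nicotine pretreated cells, it gave 9 lower (all but KIF18A), with 15.3% called. Radiation and smoke extract together against untreated cells gave 10 of 10 lower, with 26.9% of all genes called. These comparisons share arrays, so their counts do not add up as separate evidence. The mean background measure in the arrays of these groups was 4.962 with both agents, 4.956 with radiation and 4.899 with smoke extract, against 4.888 in untreated cells, and with that measure as a covariate 9 kinesins remained called for radiation alone and 9 for smoke extract added to radiation. Without the 13 arrays that stood apart on it, the counts were 9 and 9 too, with 6 for the interaction described next.

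Whether the drop with both agents exceeded the sum of the single drops was tested as the smoke extract by radiation interaction at 24 h. It was called for 6 of the 10, all negative, with 2.57% of all genes called. In KIF20A the combined change was -2.44 ± 0.08, against a sum of -0.99 from radiation alone and smoke extract alone, an excess of -1.45 ± 0.12 (limma adjusted p = 1.57e-11). KIF11 had a combined change of -1.85 against a sum of -0.82, and KIF4A -1.53 against -0.59. The excess was -0.96 in KIF14, -0.84 in KIF2C and -0.56 in KIFC1. The KIFC1 term had limma adjusted p = 0.0382 and lost its call without any 1 of 8 arrays: untreated replicates 1 and 2, smoke extract 2 and 3, radiation 1 and 2, or both agents 1 and 2 (adjusted p 0.054 to 0.104).

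The other 4 members did not pass the interaction test. KIF15 had -0.65 ± 0.19, KIF18A -0.66 ± 0.19 and CENPE -0.79 ± 0.24, with limma adjusted p of 0.056, 0.053 and 0.067. All of them passed without replicate 3 of the cells given both agents (adjusted p = 0.0337, 0.0194 and 0.0136), and KIF18A passed also without untreated replicate 1 (adjusted p = 0.0339). KIF23 had -0.07 ± 0.16 with a 95% interval of -0.39 to 0.25 (limma adjusted p = 0.912). Using the background measure as a covariate gave 9 calls, all members but KIF23. The share of all genes called in that fit is not given here, and the 2.57% above belongs to the fit without the covariate.

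**Figure D2:**
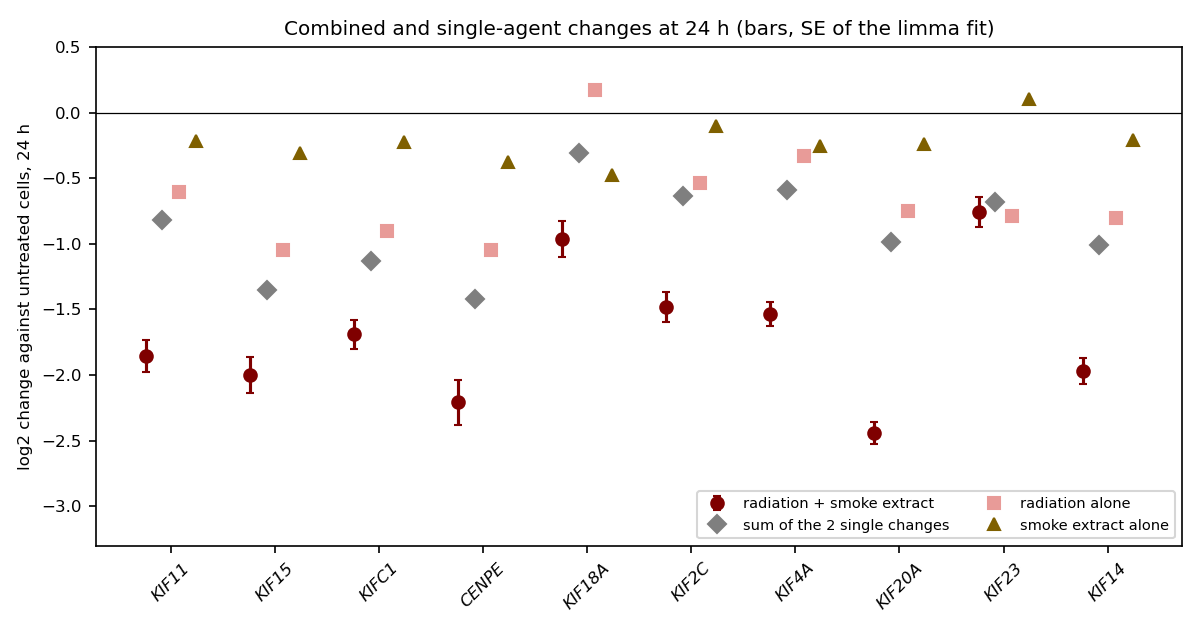
Log2 change against untreated cells at 24 h for each kinesin with radiation and smoke extract together (points with SE), the sum of the 2 single changes, radiation alone and smoke extract alone. The combined change lies below the sum in each gene, by 1.45 in KIF20A and, within its SE of 0.16, by 0.07 in KIF23.

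Smoke extract without radiation was accompanied by small differences at 24 h. Of the 10 kinesins 9 had a negative change, and 2 were called lower, with 16.1% of all genes called. KIF18A had 8.41, 8.57 and 8.47 with smoke extract, against 9.19, 8.95 and 8.73 in untreated cells, a change of -0.47 ± 0.14 without overlap (limma adjusted p = 0.013). That call was lost without untreated replicate 1 (limma adjusted p = 0.129) or smoke extract replicate 1 (adjusted p = 0.0596). KIF20A changed by -0.24 ± 0.08 (limma adjusted p = 0.0442), a call that was lost under 8 of 16 other settings. KIF4A, at -0.26 ± 0.09, was just outside the threshold (limma adjusted p = 0.052). Averaged over the untreated, radiation and cisplatin arms, the smoke extract change was called for 9 kinesins, all lower, with 27.7% of all genes called. The median change over the 10 was -0.23, -1.15 and -0.67 in these arms, so the average does not describe smoke extract alone. KIF23 was the exception to the 9 calls, with a mean change of 0.00 ± 0.07.

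No kinesin was called lower with cisplatin alone at 24 h. The changes ran from -0.07 (KIFC1) to 0.40 (KIF11), and 1 was called, KIF14 at 0.35 ± 0.10 (limma adjusted p = 0.0369), with 3.8% of all genes called. KIF14 had 9.08, 8.94 and 9.13 with cisplatin, against 8.78, 8.65 and 8.67 in untreated cells, without overlap, yet the call was lost on leaving out any 1 of these 6 arrays. Set directly against cisplatin, radiation gave lower values of 9 kinesins, all but KIF18A, with 13% of all genes called. The differences among the 9 ran from -0.59 (KIF2C) to -1.29 (CENPE).

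When smoke extract preceded cisplatin, 9 kinesins were lower at 24 h than with cisplatin alone, with 28.6% of all genes called. CENPE had 6.97, 7.48 and 7.33 with smoke extract and cisplatin, against 8.40, 7.91 and 8.61 with cisplatin alone, a change of -1.05 ± 0.17 without overlap (limma adjusted p = 1.63e-05). KIF4A changed by -0.83 ± 0.09 (limma adjusted p = 3.55e-09) and KIF23 by -0.13 ± 0.11, which was not called (limma adjusted p = 0.36). The background measure averaged 5.051 in these cells, against 4.814 with cisplatin alone, and as a covariate it ended the calls of KIF2C (change -0.16, adjusted p = 0.467) and KIFC1 (change -0.26, adjusted p = 0.172). With that covariate the change was -0.69 in CENPE (limma adjusted p = 0.000915) and -0.38 in KIF15 (adjusted p = 0.0199), against -1.05 and -0.68 without it, and KIF23 turned to 0.10 (adjusted p = 0.62). KIF2C was also lost without cisplatin replicate 2 or 3 or smoke extract and cisplatin replicate 1 or 3, KIFC1 without smoke extract and cisplatin replicate 3, and KIF23 was called without cisplatin replicate 2 (limma adjusted p = 0.0454). The smoke extract by cisplatin interaction was called for 1 kinesin, with 0.152% of all genes called. That was KIF4A, at -0.58 ± 0.13 (limma adjusted p = 0.0495), and 9 of the 12 leave-one-out fits lost it, as did the background covariate (change -0.45, adjusted p = 0.0881).

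Nicotine alone gave no call among the kinesins at 24 h, with 0.00543% of all genes called. An unadjusted limma p under 0.05 was found in 1 of the 10, and in 1074 of all 18417 genes. Added to radiation, nicotine gave 0 calls as well, with 0.00543% of all genes called. Here 3 of the 10, and 1035 of all 18417 genes, had an unadjusted limma p under 0.05. Added to cisplatin it gave 7 lower kinesins, with 17.8% of all genes called, led by CENPE at -0.53 ± 0.17 and KIF14 at -0.44 ± 0.10 (limma adjusted p = 0.0322 and 0.00722). The background measure was 5.021 with nicotine and cisplatin, against 4.814 with cisplatin alone. With it as a covariate, and likewise without cisplatin replicate 3, none of the 7 calls was made, and its part in the difference was not otherwise tested. Averaged over the 3 arms, nicotine gave 3 lower kinesins at 24 h, with 5.21% of all genes called: KIF4A at -0.30, KIF15 at -0.26 and KIF20A at -0.22. The median nicotine change over the 10 was -0.10, -0.16 and -0.42 in the untreated, radiation and cisplatin arms. This average thus does not describe nicotine alone.

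At 2 h, KIF23 and KIF18A were the kinesins called with smoke extract, KIF23 higher and KIF18A lower. KIF23 had 10.65, 10.61 and 10.69 with smoke extract, against 9.84, 9.88 and 9.82 in untreated cells. It had 10.65, 10.44 and 10.58 with smoke extract and radiation, against 9.74, 9.62 and 9.59 with radiation alone. It had 10.68, 10.70 and 10.53 with smoke extract and cisplatin, against 9.79, 9.90 and 9.95 with cisplatin alone. All 9 arrays with smoke extract lay above all 18 arrays without it. The changes were 0.80 ± 0.11, 0.91 ± 0.11 and 0.76 ± 0.11 (limma adjusted p = 1.69e-06, 9.74e-08 and 3.86e-06), and each was called on leaving out any 1 array.

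KIF18A had 8.69, 8.21 and 8.35 with smoke extract and radiation, against 9.16, 8.97 and 8.93 with radiation alone, a change of -0.60 ± 0.14 without overlap (limma adjusted p = 0.00404). With smoke extract and cisplatin it had 8.88, 8.87 and 8.22, against 9.19, 9.29 and 9.29 with cisplatin, a change of -0.60 ± 0.14 (limma adjusted p = 0.00287). With smoke extract alone it had 8.78, 8.84 and 8.90, against 9.19, 9.30 and 9.19 in untreated cells, below them on every array, yet the change of -0.38 ± 0.14 was not called (limma adjusted p = 0.136). The call in irradiated cells was lost without radiation replicate 1 or smoke extract and radiation replicate 2 (adjusted p = 0.0564 and 0.0852), and that in cisplatin cells without smoke extract and cisplatin replicate 3 (adjusted p = 0.115).

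Among the 10 kinesins at 2 h, smoke extract alone gave 1 call (KIF23), with 3.77% of all genes called. Added to radiation it gave 2 (KIF23 higher, KIF18A lower), with 2.66%, and added to cisplatin the same 2, with 5.46%. Averaged over the 3 arms smoke extract gave those 2 again, with 9.28% of all genes called. The other 8 kinesins had mean changes of -0.05 (KIFC1) to -0.20 (KIF11) in that average.

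At 24 h the smoke extract change in KIF23 was 0.10 ± 0.11, from 9.70, 9.83 and 9.57 with smoke extract against 9.65, 9.59 and 9.55 in untreated cells, which overlapped. The smoke extract effect at 24 h minus that at 2 h was called for KIF23 alone of the 10, at -0.70 ± 0.16 (limma adjusted p = 0.00619), with 6.29% of all genes called. In KIF18A the 24 h change of -0.47 and the 2 h change of -0.38 differed by -0.09 ± 0.19, which was not called (limma adjusted p = 0.896).

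**Figure D3:**
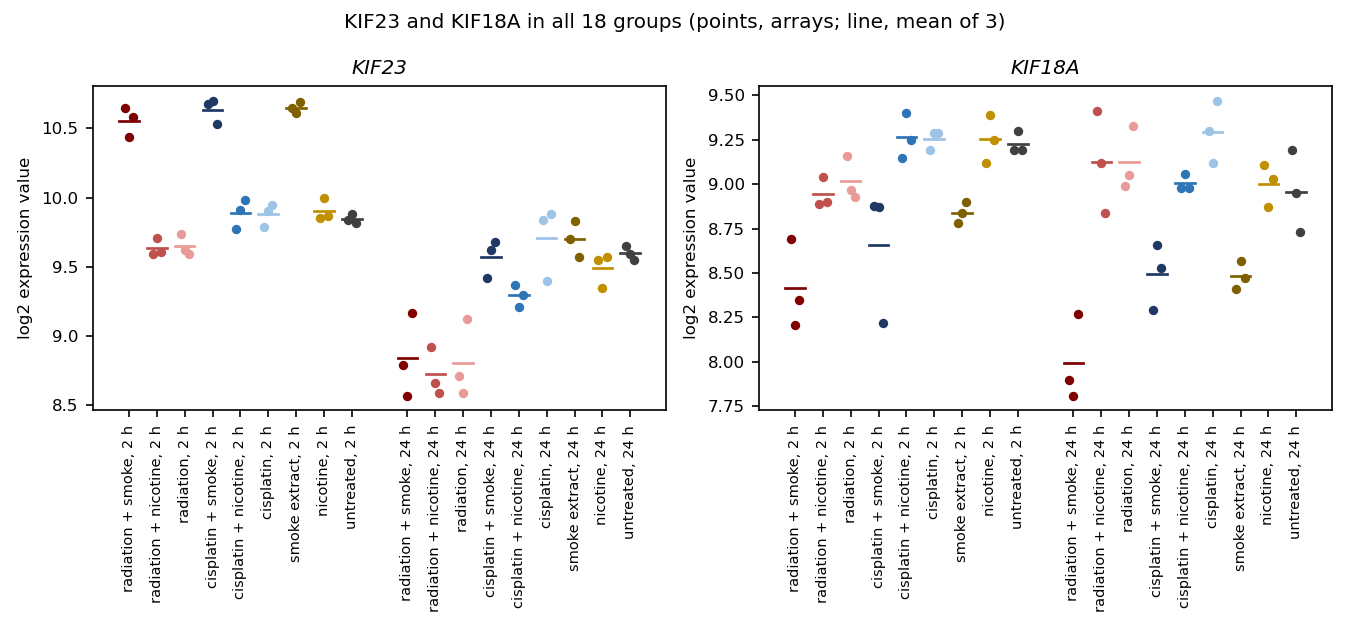
Log2 values of KIF23 and KIF18A in all 18 groups, with single arrays as points and group means as lines. For KIF23 the 3 smoke extract groups at 2 h average 10.56 to 10.65, above the other 6 at 9.64 to 9.91, and at 24 h the 3 irradiated groups are the lowest.

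Radiation alone at 2 h gave a negative change in all 10 kinesins, from -0.11 (KIF15) to -0.51 (CENPE), and called none, with 0.304% of all genes called by limma. An unadjusted limma p under 0.05 was found in 5 of the 10, and in 1040 of all 18417 genes. CENPE had 7.96, 7.84 and 7.87 with radiation, against 8.36, 8.50 and 8.33 in untreated cells, without overlap. Averaged over the cells with smoke extract, with nicotine and with neither, the radiation effect at 2 h was called for 6 kinesins, all lower, with 1.35% of all genes called. They were CENPE (-0.46 ± 0.10), KIFC1 (-0.37 ± 0.06), KIF18A (-0.31 ± 0.08), KIF14 (-0.31 ± 0.06), KIF20A (-0.23 ± 0.05) and KIF4A (-0.21 ± 0.05). The same average for KIF18A at 24 h was -0.07 ± 0.08 and was not called (limma adjusted p = 0.574). Its arms went in opposite directions, with 0.17 in cells with neither, 0.12 with nicotine and -0.49 with smoke extract. Only the last was called (limma adjusted p = 0.00998).

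Radiation and smoke extract together at 2 h gave 5 lower kinesins and 1 higher than in untreated cells, with 4.51% of all genes called. The median change over the 10 was -0.34, against -0.01 over all genes. The groups did not overlap in any of the 10, nor in 25.8% of all genes. KIF18A had 8.69, 8.21 and 8.35 with both agents, against 9.19, 9.30 and 9.19 in untreated cells, a change of -0.81 ± 0.14 (limma adjusted p = 4.3e-05). KIFC1 had 8.11, 7.89 and 8.02 with both agents, against 8.54, 8.47 and 8.38 in untreated cells, a change of -0.45 ± 0.11 (limma adjusted p = 0.00635). KIF14 (-0.44), KIF20A (-0.34) and KIF4A (-0.33) were the other lower members, and KIF23, at 0.71 ± 0.11 (limma adjusted p = 1.59e-05), the higher one. The calls of KIF18A and KIF23 were made on leaving out any 1 array. KIF20A was lost without untreated replicate 2 or both agents replicate 2 or 3 (limma adjusted p 0.0586 to 0.129), and KIF4A without any 1 of 4 arrays, untreated replicates 2 and 3 and both agents replicates 2 and 3 (adjusted p 0.0733 to 0.211). KIFC1 was lost without untreated replicate 1 (adjusted p = 0.0522) or both agents replicate 2 (0.0815), and KIF14 without both agents replicate 2 (0.0722). CENPE, at -0.51 ± 0.17, was not called (limma adjusted p = 0.0952), and was called without both agents replicate 1 (adjusted p = 0.0412). KIF11, KIF2C and KIF15 changed by -0.35, -0.33 and -0.32 and were not called. The background measure averaged 4.813 with both agents, against 4.793 in untreated cells, and with it as a covariate KIF11 (adjusted p = 0.0345) and CENPE (0.0146) were called lower too.

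The change with radiation alone was more negative at 24 h than at 2 h in 5 kinesins, tested as the difference of the 2 effects, with 13% of all genes called. KIF15 had the largest difference, -0.93 ± 0.19 (limma adjusted p = 0.000668), followed by KIF23 at -0.59, KIFC1 at -0.56, KIF20A at -0.45 and KIF14 at -0.44. KIF14 was lost without any of 6 arrays (adjusted p 0.056 to 0.103), KIF23 without radiation 24 h replicate 2 (adjusted p = 0.0569) and KIFC1 without radiation 2 h replicate 1 (adjusted p = 0.0606), while KIF11 and CENPE were called without radiation 24 h replicate 3 and KIF2C without radiation 2 h replicate 3. CENPE, with the largest change at 2 h, had a difference of -0.54 ± 0.24 that was not called (limma adjusted p = 0.16). Nor was that of KIF18A, 0.37 ± 0.19 (limma adjusted p = 0.238).

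Cisplatin alone and nicotine alone at 2 h each gave 0 calls among the kinesins, with 0 of 10 at an unadjusted p under 0.05 in limma in either comparison. Of all genes, 0.00543% were called with cisplatin and 0% with nicotine, and 418 and 109 of the 18417 had an unadjusted p under 0.05. Untreated cells themselves differed with time: 2 kinesins were lower at 24 h than at 2 h, with 1.92% of all genes called. KIF11 had 9.26, 9.19 and 9.17 at 24 h, against 9.68, 9.82 and 9.80 at 2 h, a change of -0.56 ± 0.12 without overlap (limma adjusted p = 0.00542). KIF20A changed by -0.30 ± 0.08 (limma adjusted p = 0.0467), a call that was lost on leaving out any 1 of 5 of the 6 arrays.

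Ranked within each gene over the 9 groups at 24 h, cells with radiation and smoke extract were lowest for 9 kinesins and did not overlap the next group. The share of all genes with that order is not given here. KIF20A averaged, from high to low, 10.15 with cisplatin, 9.92 untreated, 9.89 with cisplatin and nicotine, 9.81 with nicotine, 9.68 with smoke extract, 9.62 with cisplatin and smoke extract, 9.17 with radiation, 8.87 with radiation and nicotine and 7.48 with radiation and smoke extract. Neighbours overlapped in 3 of the 8 steps of that order. For KIF23 neighbours overlapped in 7 of 8 steps, and the 1 gap lay between the 6 groups without radiation and the 3 with it. For KIF18A the gaps lay above cisplatin with smoke extract and above radiation with smoke extract, so that the 3 smoke extract groups were the lowest.

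Over the 18 group means, each kinesin except KIF23 and KIF18A correlated with the mean of the other 9 at r = 0.948 to 0.988. KIF23 had r = 0.650 and KIF18A r = 0.559, and the r between these 2 was -0.031. Group means share arrays and treatments within a gene, so r is given as a description. The 8 genes outside the list most like the mean profile of the 10 were NCAPG (r = 0.992), DLGAP5 (0.991), ARHGAP11A (0.990), CCNB1 (0.989), MKI67 (0.989), CDCA2 (0.989), SPAG5 (0.987) and KNL1 (0.987), again over 18 group means. Among them CCNB1 encodes cyclin B1 and MKI67 the proliferation marker Ki-67.

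Kinesins outside the 10 were counted in the same comparisons. The list of 30 transport and other kinesins and kinesin subunits was not screened for mitotic roles and includes KIF2A. Of these 30, 4 were higher and 1 lower with radiation alone at 24 h, against 21% of all genes called. Their median change was 0.08. KIF27 (0.66 ± 0.09), KIFAP3 (0.41), KIF3C (0.29) and KIF3B (0.29) were the higher ones. With smoke extract added to radiation 1 of the 30 was lower, against 8.23% of all genes called, and the median was -0.02. Of 4 further mitotic kinesins, 3 were lower with radiation alone (21% of all genes called) and the same 3 with smoke extract added to it (8.23%): KIF18B (-0.65 and -0.83), KIF20B (-0.58 and -1.02) and KIF22 (-0.45 and -0.84). The fourth, KIF2B, changed by 0.18 and -0.05.

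**Figure D4:**
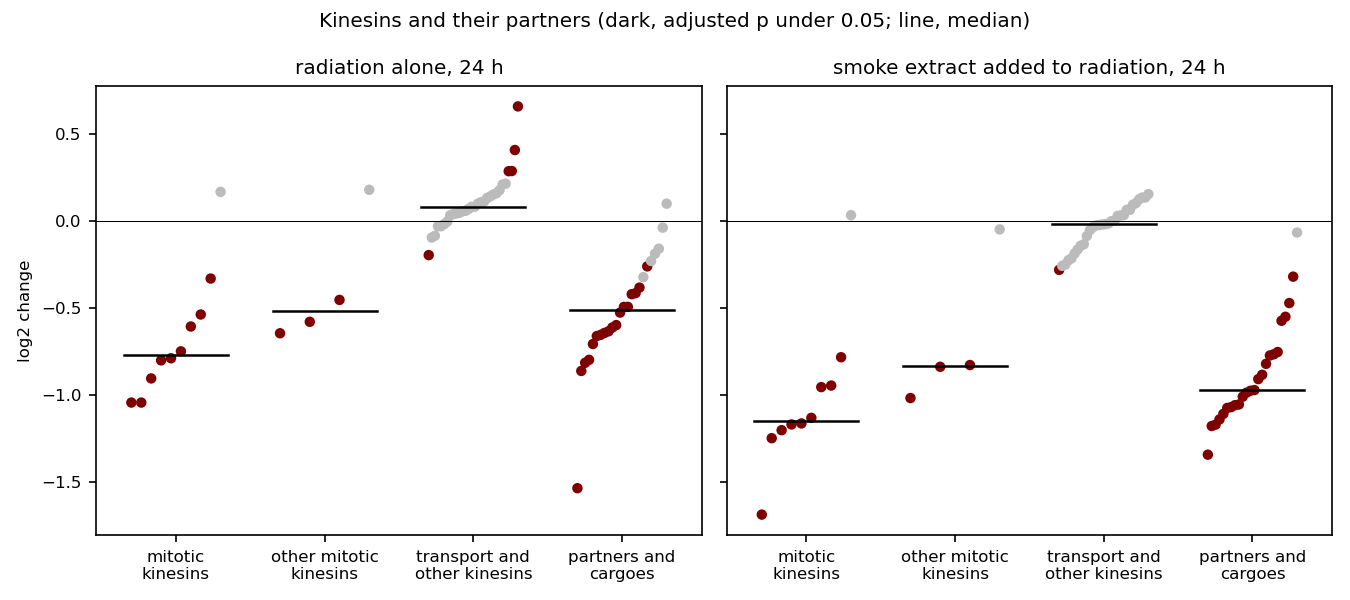
Log2 change of single genes in the 10 kinesins, 4 further mitotic kinesins, 30 transport and other kinesins and 24 partners at 24 h, for radiation alone and for smoke extract added to radiation. The 10 have medians of -0.77 and -1.15, and the transport kinesins 0.08 and -0.02.

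Of 24 proteins that the motors bind or carry, 18 were lower with radiation alone, 23 with smoke extract added to radiation and 15 in the interaction, against 21%, 8.23% and 2.57% of all genes called, with medians of -0.51, -0.97 and -0.77. AURKB, the kinase of the passenger complex that KIF20A carries, changed by -1.54 with radiation, followed by NUSAP1 (-0.86), RACGAP1 (-0.81) and BUB1B (-0.80). PRC1, the bundler that KIF4A binds, changed by -0.49 ± 0.06 with radiation and by a further -0.98 ± 0.06 with smoke extract added. RACGAP1 is the partner of KIF23 in centralspindlin. With smoke extract added to radiation RACGAP1 changed by -0.77 ± 0.08 (limma adjusted p = 1.28e-09) and KIF23 by 0.03. With smoke extract alone RACGAP1 changed by -0.68 ± 0.08 (limma adjusted p = 5.72e-08), and its interaction of -0.09 was not called (limma adjusted p = 0.817).

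Of 19 measured regulators of cell cycle transcription, 2 were higher and 9 lower with radiation alone at 24 h, against 21% of all genes called. With smoke extract added to radiation 1 was higher and 7 lower, against 8.23%. FOXM1 and MYBL2, activators of late cell cycle promoters, changed by -0.48 ± 0.12 and -0.71 ± 0.07 with radiation and by a further -0.95 ± 0.12 and -1.02 ± 0.07 with smoke extract added. Their interactions were -1.10 and -0.90, both called (limma adjusted p = 1.46e-05 and 8.41e-08). CDKN1A (p21), an inhibitor of cyclin-dependent kinases, rose by 0.77 ± 0.16 with radiation (limma adjusted p = 0.000201) and changed by 0.22 ± 0.16 with smoke extract added, which was not called. Of 11 measured tubulins, 1 was higher and 6 lower with radiation, against 21% of all genes called, with a median of -0.28.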

How the data were processed

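The authors deposited 1 value per array feature, produced with Affymetrix Power Tools 1.15.0 per the submitters' processing notes. For summarisation, background correction and normalization, the method is not given in the sources used here. Deposited values were taken as log2, since they ran from 0.89 to 13.81, and that base is inferred. Of 33297 features, 19460 had 1 gene symbol, 1754 several and 12083 none. The feature with the highest mean stood for each of 18417 genes (769 had more than 1).

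A linear model of the 18 group means was fitted to all 54 arrays with limma 3.58.1 in R 4.3.3 (36 residual degrees of freedom), with moderated variances following an intensity trend and two-sided tests. Genes were called at a Benjamini-Hochberg adjusted p under 0.05 over all genes. The procedure was tested on simulated data. Members and gene lists were chosen with earlier results of these data known. Named genes were all members, FOXM1, MYBL2, CDKN1A and PRC1, the 8 genes most like the members' mean profile, and up to 4 called genes per list with the largest change for radiation or smoke extract alone at 24 h. KIF2B was named after its value was seen.

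Replicate numbers did not pair the arrays: deviations of same-numbered arrays correlated at 0.018 on average. Alternatives were no trend, only the compared groups, quantile normalization, the background measure as a covariate, a replicate block, adjustment over all features, genes above the median level, the mean of all features of a gene, arrays far in the background measure left out (over 3 scaled median absolute deviations), the mean over 3 arms, and each replicate left out. Promoters came from RefSeq (GRCh38.p14). The number of arrays limits the precision.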

Additional observations from a re-analysis of the deposited data

Results flagged for a closer look

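These results differed between conditions by a test of the difference itself. Smoke extract changed these kinesins more in irradiated than in otherwise untreated cells at 24 h (log2 differences of the 2 effects, limma adjusted p): KIF20A by -1.45 (1.57e-11), KIF11 by -1.04 (0.000115), KIF14 by -0.96 (1.12e-05), KIF4A by -0.95 (4.04e-06), KIF2C by -0.84 (0.00096) and KIFC1 by -0.56 (0.0382). In cisplatin-treated against otherwise untreated cells, the smoke extract effect on KIF4A differed by -0.58 (limma adjusted p = 0.0495). Of 12 leave-one-out fits each, 4 kept the KIFC1 call with radiation and 3 the KIF4A call with cisplatin. The KIF4A call with cisplatin was also lost with the background covariate.

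The effect of radiation at 24 h differed from that at 2 h by -0.93 in KIF15, -0.59 in KIF23, -0.56 in KIFC1, -0.45 in KIF20A and -0.44 in KIF14 (limma adjusted p = 0.000668, 0.00917, 0.0108, 0.00752 and 0.0303). The effect of smoke extract on KIF23 at 24 h differed from that at 2 h by -0.70 (limma adjusted p = 0.00619).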

How the results depend on the processing

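Counts of called kinesins moved by no more than 1.5 times under every alternative for radiation alone at 24 h (8 to 9), smoke extract added to radiation (9), smoke extract added to cisplatin (7 to 9), radiation against cisplatin (8 to 9), the smoke extract by radiation interaction (5 to 9) and the smoke extract effect over time (1), and no change of a called member reversed. Other counts moved. Radiation at 2 h (0) became 3 with only the compared groups, 2 with the background covariate, 3 without far arrays and 6 as the mean of 3 arms. Cisplatin at 24 h (1) became 4 with quantile normalization, 3 with the covariate, 3 among genes above the median level, and 0 without far arrays, as the mean of 3 arms and in every leave-one-out fit. Smoke extract at 2 h (1) became 4 with only the compared groups and 2 as the mean of 3 arms. Smoke extract at 24 h (2) became 1 without the trend and over all features, 5 with the covariate, without far arrays and with only the compared groups, 9 as the mean of 3 arms, and 0 to 2 leaving out 1 array. Nicotine at 24 h (0) became 3 as the mean of 3 arms, and nicotine added to radiation (0) became 1 without far arrays. Nicotine added to cisplatin (7) became 4 with quantile normalization, 0 with the covariate, 4 without far arrays and 0 to 8 leaving out 1 array: 0 without cisplatin replicate 3, 4 without cisplatin replicate 1, and 3 and 2 without nicotine and cisplatin replicates 1 and 2. Untreated cells over time (2) became 1 without the trend, with quantile normalization, with the replicate block and over all features, 8 with only the compared groups, 4 without far arrays and 1 to 2 leaving out 1 array. The radiation effect over time (5) became 3 to 7 leaving out 1 array, with 3 without radiation 2 h replicate 1 or radiation 24 h replicate 2. The replicate block moved no other count by over 1.5 times. The mean of 3 arms is a different comparison, since it includes cells given a second agent. Where leaving out far arrays left a group with 1 array, that array was assumed to vary like the other groups. Apart from the settings that change which samples or genes enter the fit, the cause of a moved count was not tested.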

Other observations

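Smoke extract alone at 24 h was accompanied by lower transcripts of 9 of the 24 listed partners and cargoes, with none higher, while 7.4% of all genes were called lower and 8.67% higher. AURKA, the kinase that acts with TPX2 at spindle poles, changed by -0.91 ± 0.10 (log2, SE), RACGAP1 by -0.68 ± 0.08, CDCA8 by -0.61 ± 0.12 and SGO2 by -0.58 ± 0.15 (limma adjusted p = 6.09e-09, 5.72e-08, 0.000422 and 0.00515). These changes were larger than that of any of the 10 kinesins in the same comparison, where KIF18A had the largest at -0.47. Of the 19 measured regulators of cell cycle transcription 3 were higher and 1 lower, and of the 30 transport and other kinesins 4 were higher and 0 lower, counts near the 16.1% of all genes called in that comparison.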
